A study of Mus musculus with 10 samples.

Results

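The replication-dependent histone genes of mouse chromosome 13 form the largest histone gene cluster of the genome, and the values below describe where TFIIIC, RNA polymerase III and 2 histone marks were found at them in cortical neurons. Members were taken as all protein-coding genes of the RefSeq table of GRCm38.p6 between 20 and 24 Mb of chromosome 13 whose symbols begin with H1f, H2ac, H2bc, H3c or H4c. This gave 53 genes of 21887 protein-coding genes: 6 linker histone H1 genes, 13 H2A, 14 H2B, 9 H3 and 11 H4 genes. An annotated start of transcription with strand was at hand for 50 of them. The rule used only positions and symbols, not measured values, but it was set with earlier results of these data known.

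The cultures were cortical neurons taken from C57BL/6J mice and grown for 6 days in vitro. All spent a night in 3% serum, after which KCl (50 mM, 45 min), which depolarizes neurons, was added to some and nothing to the others. Chromatin immunoprecipitation and sequencing was done with antibodies to H3K27ac, H3K4me1, the TFIIIC subunit Gtf3c1 and the catalytic polymerase III subunit Rpc155, and the deposited peak lists number 8, with 1 per antibody in each condition. The submitters state 3 biological replicates, but with 1 list each the spread between replicates is unknown and no difference between conditions was tested. Read depth is not known from peak lists.

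Replication-dependent histone genes are short, mostly lack introns, and encode the core and linker histones that package newly made DNA in S phase. RNA polymerase II transcribes them in a nuclear compartment organised by NPAT, and their mRNAs end in a stem-loop rather than a poly(A) tail. Neurons have left the cell cycle. TFIIIC recognises the A and B boxes inside tRNA genes and recruits TFIIIB and RNA polymerase III there, and it is also known at many sites without the polymerase. H3K27ac marks active promoters and enhancers, and H3K4me1 marks enhancers and the flanks of promoters.

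The members lay in 3 blocks and an outlying pair. The block at chr13:21715711-21833475 held 17 members from H2bc13 to H2ac24, the block at chr13:22035122-22043658 held 5 from H2ac12 to H2bc11, and the block at chr13:23531044-23764412 held 29 from H4c8 to H1f1. The pair H2bc1 and H2ac1, which encode testis variants of H2B and H2A, lay at chr13:23933725-23934913. The median member was 488 bp long and 49 members were under 1 kb, against a median of 17169 bp over all protein-coding genes. In 9 places a H2A and a H2B gene were head to head, with 163 to 280 bp between their starts. The same window held 104 tRNA genes, but only H4c8 lay within 1 kb of a tRNA gene (625 bp away) and 5 members within 5 kb.

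Below are 7 upstream stretches on which the results turn. Of these, 4 belong to H4 genes with a TFIIIC region over the start in each list. Another is the shared stretch of H2bc7 and H2ac7, where TFIIIC was strongest among the H2A, H2B and H3 genes after KCl. The others are those of H3c4, a gene near Gtf3c1 and Rpc155 regions in the KCl list alone, and of a linker histone gene. Each of the 7 is read 5′ to 3′ toward the named gene from the RefSeq promoter table of GRCm38.p6. Each ends just before the start of transcription. Capitals mark exact matches on either strand to the TATA box, spelled TATAAA, the CCAAT box, which reads ATTGG on the other strand, the CGGAC core bound by the histone H4 factor HINFP, which reads GTCCG on the other strand, the H1 box, spelled AAACACA, the octamer, spelled ATTTGCAT, or the cAMP response element, spelled TGACGTCA.

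H4c3, minus strand, chr13:23698459-23698708: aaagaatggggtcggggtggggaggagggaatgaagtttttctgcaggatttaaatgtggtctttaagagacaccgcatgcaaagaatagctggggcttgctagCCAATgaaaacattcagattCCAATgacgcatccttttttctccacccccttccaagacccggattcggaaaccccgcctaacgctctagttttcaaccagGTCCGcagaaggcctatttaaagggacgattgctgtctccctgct
H4c4, plus strand, chr13:23581318-23581567: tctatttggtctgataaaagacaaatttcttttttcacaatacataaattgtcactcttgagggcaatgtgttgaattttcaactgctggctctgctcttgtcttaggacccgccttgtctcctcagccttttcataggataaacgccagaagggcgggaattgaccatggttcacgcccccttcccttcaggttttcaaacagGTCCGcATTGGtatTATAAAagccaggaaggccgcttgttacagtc
H4c9, minus strand, chr13:22041363-22041612: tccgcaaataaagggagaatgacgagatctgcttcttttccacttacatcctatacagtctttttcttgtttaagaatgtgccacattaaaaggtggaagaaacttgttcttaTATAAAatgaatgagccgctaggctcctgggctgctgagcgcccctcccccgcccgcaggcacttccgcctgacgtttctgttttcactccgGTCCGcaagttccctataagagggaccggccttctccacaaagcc
H4c1, minus strand, chr13:23761250-23761499: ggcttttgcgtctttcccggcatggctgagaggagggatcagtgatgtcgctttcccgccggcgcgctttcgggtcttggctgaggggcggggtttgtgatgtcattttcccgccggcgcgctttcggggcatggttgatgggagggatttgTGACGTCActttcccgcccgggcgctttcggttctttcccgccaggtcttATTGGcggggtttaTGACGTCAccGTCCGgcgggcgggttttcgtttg
H2bc7 to H2ac7, plus strand, chr13:23574208-23574380: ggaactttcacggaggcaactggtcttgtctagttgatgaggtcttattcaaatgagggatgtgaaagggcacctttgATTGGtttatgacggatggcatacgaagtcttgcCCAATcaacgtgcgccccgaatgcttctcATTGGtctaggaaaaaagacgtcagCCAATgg
H3c4, plus strand, chr13:23575513-23575762: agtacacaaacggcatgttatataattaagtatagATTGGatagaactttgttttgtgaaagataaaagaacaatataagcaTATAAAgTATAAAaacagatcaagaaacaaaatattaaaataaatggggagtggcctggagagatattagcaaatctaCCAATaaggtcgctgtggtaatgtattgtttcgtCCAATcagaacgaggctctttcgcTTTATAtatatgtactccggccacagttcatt
H1f4, minus strand, chr13:23622559-23622808: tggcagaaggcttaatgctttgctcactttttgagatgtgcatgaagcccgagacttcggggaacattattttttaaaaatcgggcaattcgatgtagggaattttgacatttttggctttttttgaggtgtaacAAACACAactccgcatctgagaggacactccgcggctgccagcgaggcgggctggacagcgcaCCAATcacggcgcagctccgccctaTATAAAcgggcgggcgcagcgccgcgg

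The H4 genes and the other families held different motifs. In windows of 300 bp (250 bases before to 50 after the start), CGGAC or its reverse was found in 11 of 11 H4 genes, in 5 of 13 H2A, 4 of 13 H2B, 1 of 7 H3 and 0 of 6 H1 genes, and in 23.4% of all 32851 windows of the table. In 6 H4 genes, H4c3, H4c4, H4c6, H4c9, H4c17 and H4c18, the match began 45 or 46 bases before the start. CCAAT, bound by NF-Y, was found in every H1, H2A, H2B and H3 window but in 3 of 11 H4 windows, 42 of 50 members in all against 37.4% of all windows. The H1 box was in 5 of 6 H1 windows and in 4 others, against 7.18% of all windows. The octamer, bound by Oct-1, was in 5 H2A and 5 H2B windows and in no H1, H3 or H4 window, against 1.74% of all windows. TATAAA on either strand was in 31 of 50 members and in 13.6% of all windows. On the sense strand 20 to 40 bases before the start it was in 10 of 50 members, against 1.99% of all windows. TGACGTCA was in 4 members, H2ac11, H2bc11, H4c1 and H4c8, 8% of 50 against 1.79% of all windows, and the H4c1 window held 2 copies. Windows of head-to-head genes overlap, so the same copy can count for both genes. This was so for TGACGTCA at H2ac11 and H2bc11. It was also so for the octamer at H2ac12 and H2bc12, at H2ac8 and H2bc8, and at H2ac1 and H2bc1. Other motifs were shared in this way too, so the counts of genes are not counts of separate copies. Among them were CGGAC at H2ac7 and H2bc7 and at H2ac23 and H2bc23, and the H1 box at H2ac1 and H2bc1. TATAAA and CCAAT were shared at H2ac12 and H2bc12, among other pairs.

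The letters of the TFIIIC boxes were rare or missing in these windows. A B box spelled GTTCGANNC was in 0 of 50 members and 0.843% of all windows, its form GTTCAANNC in 0 of 50 and 2.79%, and an A box spelled TGGCNNAGT in 1 of 50 (H2bc9) and 4.17%. These counts say only that the exact letters were not in the 300 bp searched. The members' windows had a median GC content of 45.2%, below the 52.7% of all windows, and a median CpG observed over expected of 0.752, above the 0.384 of all windows.

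A gene was called listed when a region came within 1 kb of it, and its value was the fold enrichment of its strongest such region. Fold enrichment is the authors' own value for a region, the signal at its summit over the local background. H3K27ac was listed at 37 of 53 members untreated (69.8%) and at 48 after KCl (90.6%), where 59.5% and 62.9% of all protein-coding genes were listed. Gtf3c1 was listed at 34 members (64.2%) and then at 44 (83.0%), against 55.8% and 55.1% of all genes. H3K4me1 was listed at 46 and 47 members, against 74.5% and 74.6%. Rpc155 was listed at 11 members (20.8%) and then at 15 (28.3%), against 29.7% and 12.4%. The number of listed members was thus higher in the KCl list for each antibody, while over all genes it was lower for Gtf3c1 and Rpc155.

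**Figure D1:**
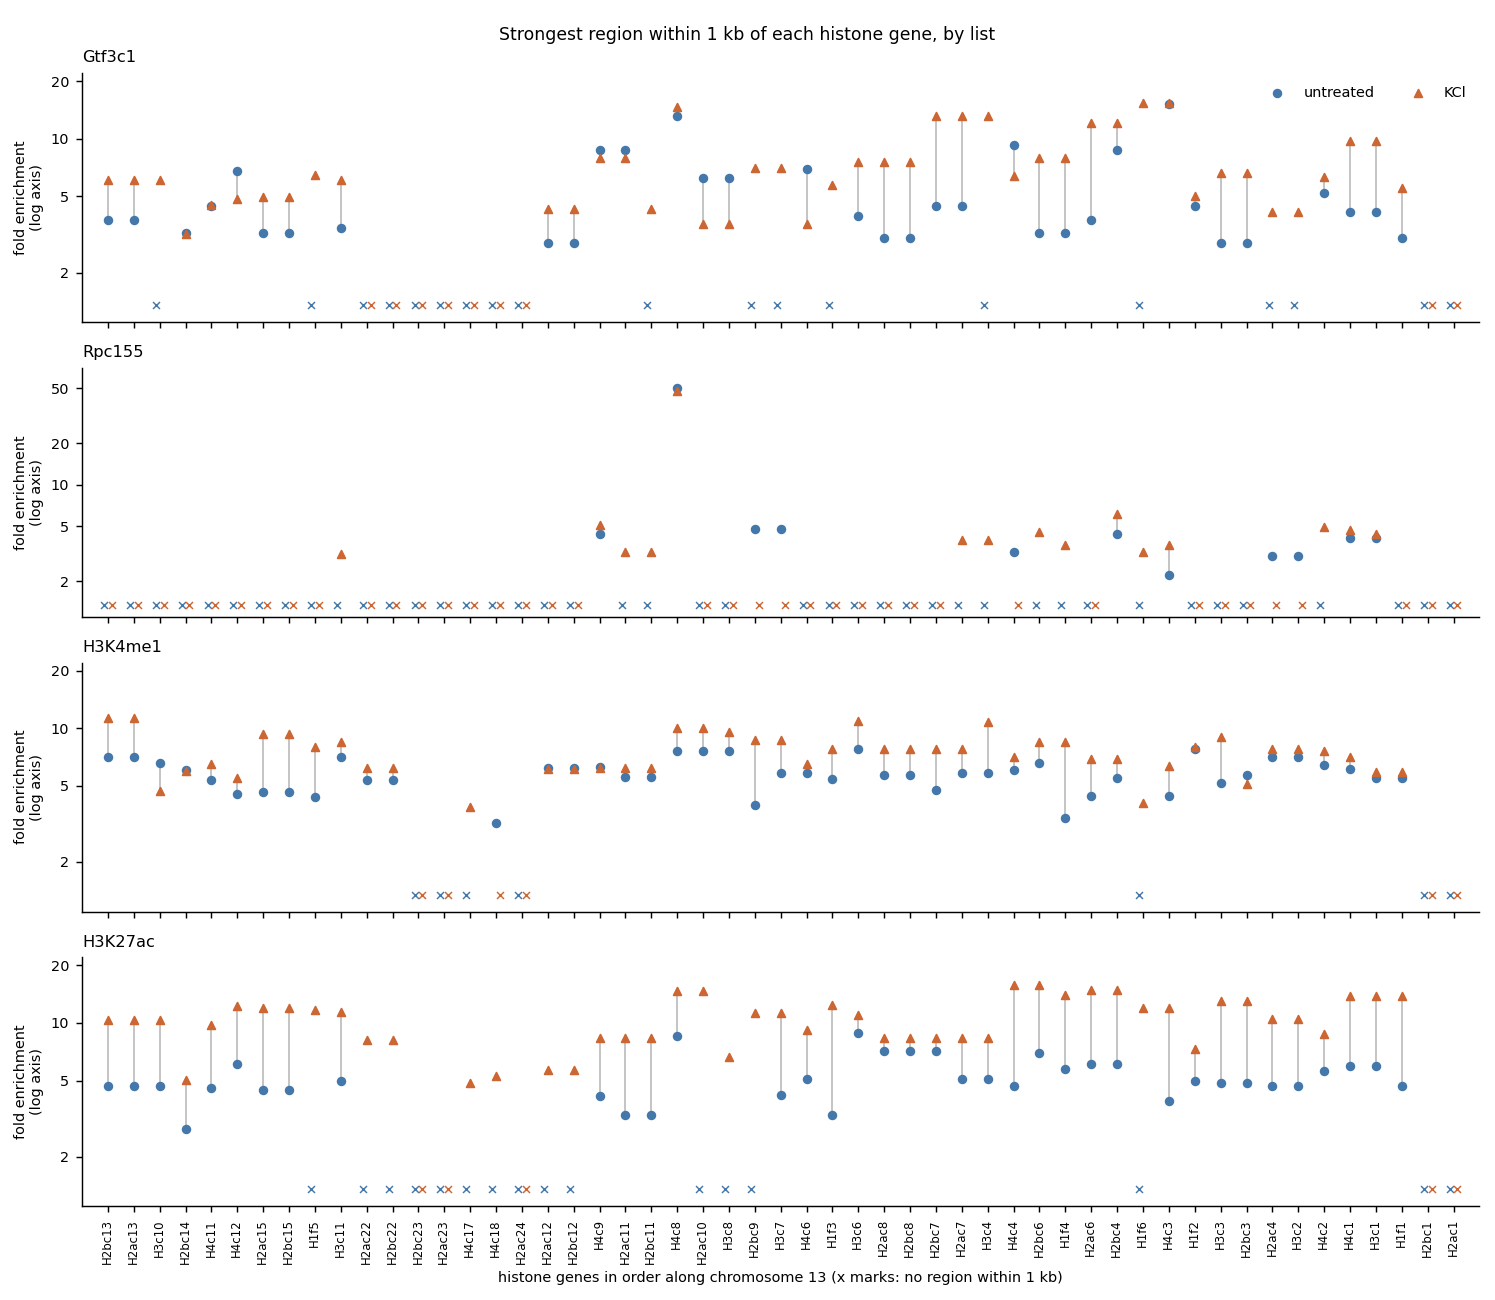
Fold enrichment (log axis) of the strongest region within 1 kb of each of the 53 histone genes, in their order along chromosome 13, for 4 antibodies; circles are the untreated list, triangles the KCl list, and x marks a gene with no region in that list. H3K27ac triangles lie above the circles at the 37 genes listed in both, and the outlying pair H2bc1 and H2ac1 has no region in any list.

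Since a long gene has more room for a region, the same was counted for summits within 1 kb of an annotated start, over 50 members and 17492 protein-coding genes. Gtf3c1 summits lay there at 27 members untreated and 37 after KCl, against 41.8% and 43.8% of all genes. H3K27ac summits did at 34 and 35 members, against 49.1% and 52.9%, and H3K4me1 summits at 38 and 37, against 52.2% and 52.7%. Rpc155 summits did at 8 and 9 members, against 20.6% and 7.49%.

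H3K27ac was higher in the KCl list at each member that both lists hold. At these 37 members the strongest region was higher in 37 of 37, and 32 were higher by 1.5-fold or more, where 36.9% of all genes listed in both passed that fold. None was lower by 1.5-fold, against 0.880% of all genes. The median fold enrichment of listed members was 4.82 untreated and 10.5 after KCl. The median log2 ratio was 1.17 (2.24-fold), with ratios from 1.17-fold to 3.76-fold. Over all genes the median log2 ratio was 0.46, so the members stood 0.71 above it. The untreated median over all genes was 6.22. The 10311 other genes that started within the members' own range, 2.79 to 8.89, had a median log2 ratio of 0.50, and the 2872 that started between the members' quartiles, 4.57 and 5.97, had 0.54. A fold enrichment of 6 or more was reached by 9 members untreated and 43 after KCl, against 31.7% and 46.2% of all genes. With regions of 6 or more alone, 5 of the 9 members left in both lists were higher by 1.5-fold or more. The share over all genes was then 31.0%. The strongest regions of a gene can lie at different places in the 2 lists. At the 28 members whose summits lay within 500 bp of each other, 23 were higher by 1.5-fold or more, against 38.2% of such genes in general, 0 were lower, against 0.598%, and the median log2 ratio was 1.16, against 0.48.

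**Figure D2:**
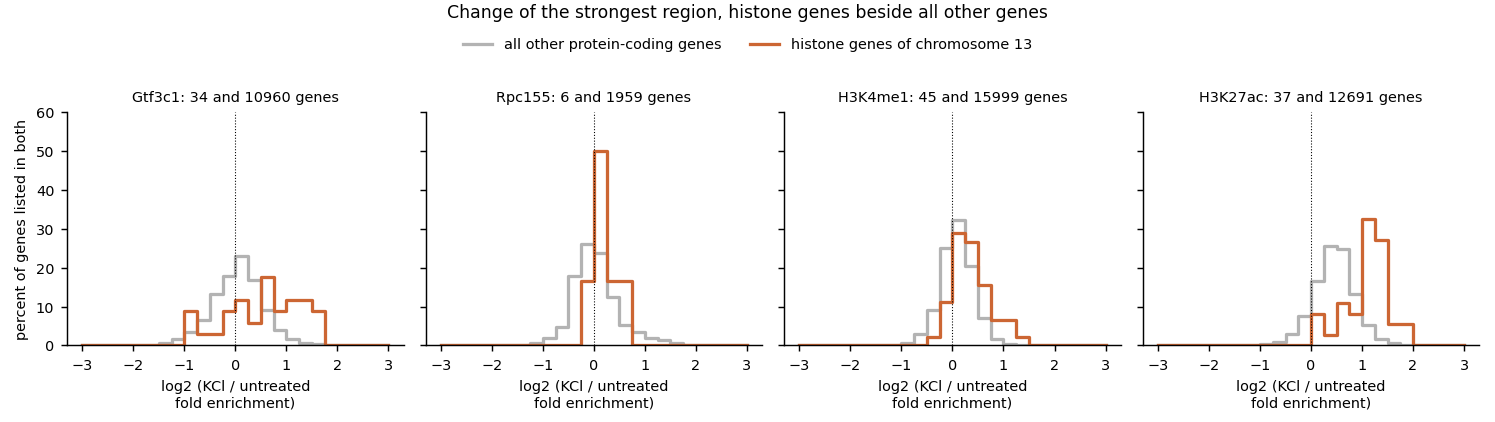
Distribution of the log2 ratio of KCl to untreated fold enrichment for genes listed in both conditions, as percent of genes in bins of 0.25, with histone genes in orange and all other protein-coding genes in grey. For H3K27ac the histone genes centre near 1.17 and all genes near 0.46, and for Gtf3c1 the histone genes spread from 0.514-fold to 3.20-fold.

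The lowest untreated H3K27ac values among members were those of H2bc14, which encodes a core histone H2B, at 2.79 untreated and 5.04 after KCl, and of H2ac11, H2bc11 and H1f3 at 3.30. H1f3, a somatic linker histone gene, had the highest ratio of the 37 members, at 3.30 untreated and 12.4 after KCl with summits 515 bp apart. H4c3, the fifth from the bottom, went from 3.91 to 12.0. The highest untreated values were those of H3c6 (8.89) and H4c8 (8.51), then of H2ac8, H2bc8 and H2bc7, which shared a region of 7.11. Those 5 had ratios of 1.17-fold to 1.73-fold, all below the members' median, but choosing high untreated values by itself favours a lower ratio. The region at H4c8 also overlapped the tRNA gene beside it.

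In the KCl list alone, H3K27ac was listed at 11 members, against 4.74% of all genes, and no member was listed in the untreated list alone, against 1.30%. The 11 were H2ac10 at 14.7, the testis linker histone gene H1f6 at 12.0, H1f5 at 11.8, H2bc9 at 11.2, the head-to-head pair H2ac22 and H2bc22 at 8.10, H3c8 at 6.62, the pair H2ac12 and H2bc12 at 5.67, H4c18 at 5.27 and H4c17 at 4.86. Several of these values belong to a wide region whose summit was at a neighbour: the summit credited to H2ac10 lay at -3081 bp from its start and that credited to H1f6 lay at 2320 bp, beyond the end of the gene.

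H3K27ac regions at members were also wider in the KCl list. The 34 untreated regions had a median width of 918.5 bp and the 32 KCl regions 2646 bp, while the whole lists had medians of 665 and 710 bp. The widest, chr13:23569470-23576958, spanned 7489 bp with a fold enrichment of 8.35 and took in H2ac8, H2bc8, H2bc7, H2ac7 and H3c4, where the untreated list had separate regions. A region of 6352 bp with the highest value of all, 15.8, took in H4c4 and the 3′ end of the annotated H2bc6, a gene of 37455 bp whose start lies 35637 bp from the summit. Members that share a region are therefore not separate measurements: 48 members after KCl rested on 28 strongest regions.

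H3K27ac covered on average 53.8% of the first 500 bp after the start untreated and 79.1% after KCl over the 50 members, against 44.6% and 51.6% over all genes. The cover was larger in the KCl list at 25 members, against 21.5% of all genes, and smaller at 0, against 2.20%.

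Gtf3c1 levels varied between the families. At the 9 H4 genes with Gtf3c1 in each list the untreated fold enrichment was 15.3 at H4c3, 13.1 at H4c8, 9.31 at H4c4, 8.77 at H4c9, 6.98 at H4c6, 6.80 at H4c12, 5.19 at H4c2, 4.48 at H4c11 and 4.12 at H4c1. In the KCl list the same genes had 15.4, 14.7, 6.37, 7.89, 3.59, 4.84, 6.28, 4.48 and 9.69. Of these genes 5 were higher and 4 lower after KCl, with a median log2 ratio of 0.00. H4c8, counted among the 5, had the values of regions over the tRNA gene beside it, with summits at -639 and -637 bp. The untreated medians of the listed H1, H2A, H2B and H3 genes were 3.22, 3.76, 3.22 and 3.94, all below the 6.98 of the H4 genes. After KCl those medians were 6.10, 6.10, 6.64 and 6.64, beside 6.37 for H4. The H4 median was the highest of the 5 untreated and lay among the others after KCl.

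Over the 34 members with Gtf3c1 in both lists, 20 were higher by 1.5-fold or more in the KCl list, against 12.6% of all genes, and 3 were lower, against 9.86%. The median log2 ratio was 0.62, against 0.06 over all genes and 0.05 over the 10481 other genes that started within the members' range. Of the 20, 2 were among the 3 H1 genes listed in both, 6 among 8 H2A, 7 among 9 H2B, 4 among 5 H3 and 1 among 9 H4 genes. These are not separate measurements, since head-to-head H2A and H2B genes mostly shared a region and ratio. H1f4 likewise shared that of H2bc6, and H3c1 that of H4c1. The 34 members listed untreated rested on 24 strongest regions and the 44 listed after KCl on 28. With each strongest region counted once, the median log2 ratio was 0.52. The highest ratio was at H2ac6, from 3.76 to 12.0, but it compares different places: the summits lay 1888 bp apart, and the KCl summit was that of H2bc4, which had 8.77 untreated and 12.0 after KCl. At H2bc7 and H2ac7, whose shared upstream stretch with 4 CCAAT letters is printed above, the fold enrichment was 4.48 untreated and 13.1 after KCl, with summits 19 bp apart. The H4 gene among the 20 was H4c1, which went from 4.12 to 9.69. Of the other members with TGACGTCA, H4c8 went from 13.1 to 14.7 in regions over the tRNA gene. H2ac11, through the region of H4c9, went from 8.77 to 7.89, and H2bc11 was listed after KCl alone. The 3 lower ones were H4c6, at 6.98 and 3.59, and H2ac10 and H3c8, which shared a region of 6.27 and 3.59. With regions at tRNA genes left out, 4 of 34 members were lower, against 9.89% of all genes, and 20 were higher, against 12.5%.

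The count of 20 moved with the rule for a region. It was 8 of 18 members at a q of 1e-05 or lower, against 12.0% of all genes. Where the region had to overlap the gene it was 12 of 22, against 13.1%. For a fold of 2 it was 11 of 34, against 3.04%. With regions of 6 or more alone it was 0 of 6, against 15.8%. The median log2 ratio was then -0.0695, against 0.07 over all genes. At the 27 members whose summits lay within 500 bp of each other, 14 were higher by 1.5-fold or more, against 14.0% of such genes in general, 3 were lower, against 9.05%, and the median log2 ratio was 0.59, against 0.08. A fold enrichment of 6 or more was reached by 10 members untreated and 28 after KCl, against 13.7% and 14.9% of all genes.

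**Figure D3:**
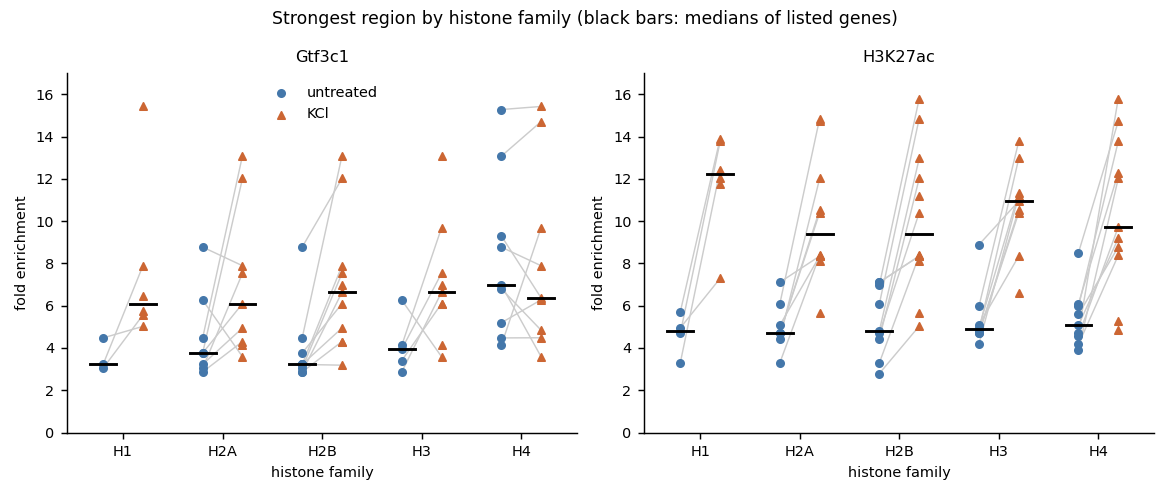
Fold enrichment of the strongest Gtf3c1 and H3K27ac region for the listed members of each histone family, untreated (circles) and KCl (triangles), with lines joining the same gene and black bars for medians. Untreated Gtf3c1 medians are 3.22 to 3.94 in H1, H2A, H2B and H3 and 6.98 in H4, while untreated H3K27ac medians are 4.70 to 5.08 over the 5 families.

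In the KCl list alone, Gtf3c1 was listed at 10 members, against 4.82% of all genes, and at 0 in the untreated list alone, against 5.55%. The 10 were H1f6 at 15.4, H3c4 at 13.1, H2bc9 and H3c7 at 7.0, H1f5 at 6.46, H3c10 at 6.10, H1f3 at 5.74, H2bc11 at 4.31, and H2ac4 and H3c2 at 4.13. No H4 gene was among them. The H1f6 value was that of the region at H4c3: the region's summit lay at 2686 bp from the H1f6 start and -39 bp from the H4c3 start, and Gtf3c1 covered 0% of the first 500 bp of H1f6 in either list. Likewise the 13.1 given for H3c4 was that of the region at H2bc7 and H2ac7, with a summit at -1279 bp from the H3c4 start, while the region over H3c4 itself, chr13:23575225-23576250, had 4.84. The summit behind the H3c2 value lay at -1172 bp, and the region covered 0% of that gene.

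The lowest untreated Gtf3c1 values were 2.87 at H2ac12, H2bc12, H3c3 and H2bc3, and 3.04 at H2ac8, H2bc8 and H1f1. After KCl the first pair had 4.31, H3c3 and H2bc3 had 6.64, H2ac8 and H2bc8 had 7.53, and H1f1, a somatic linker histone gene, had 5.56. All 7 were higher in the KCl list by 1.5-fold or more. They were named for their low untreated values, a choice that by itself favours a higher ratio, so nothing is concluded from this count. The genes of each pair also shared a region.

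The summit lay close to the start at H4 genes. In the untreated list 7 of 9 H4 genes had the summit of the strongest Gtf3c1 region within 100 bp of the start, at a median distance of 34 bp, and in the KCl list 6 of 9 did, at 50 bp. The share of all genes within 100 bp was not counted, so whether this is particular to histone genes is not known. Within 1 kb of the start a summit lay at 9 of 11 H4 genes in each list, against 41.8% and 43.8% of all genes. The exceptions untreated were H4c1, at -229 bp, and H4c8, at -639 bp over the tRNA gene. H4c8 had a further untreated region of its own, chr13:23530912-23531880, with a fold enrichment of 9.49. Of the other families, 3 of 8 H2A, 2 of 8 H2B, 1 of 4 H3 and 0 of 3 H1 genes had an untreated summit within 100 bp. At H4c3, H4c4 and H4c9 the untreated summits lay at -69, 4 and -56 bp from the start, and their GTCCG letters began 45 or 46 bases before it. H4c6, with letters 45 bases before the start, had its summit at -31 bp. H4c2, H4c11 and H4c12 had summits at 19, -9 and -34 bp without letters 45 or 46 bases before the start. H4c17 and H4c18 had letters there but no Gtf3c1 region in either list. Binding of HINFP was not measured here.

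**Figure D4:**
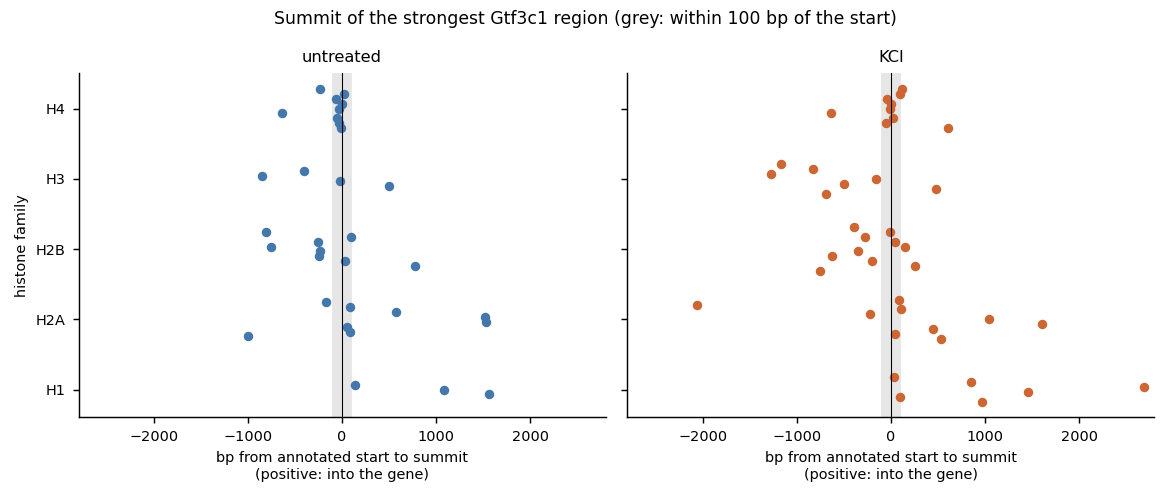
Distance in bp from the annotated start to the summit of the strongest Gtf3c1 region, by family, untreated (left) and KCl (right); each point is a gene with a start and a region, positive values lie into the gene, and the grey band spans 100 bp on either side. In the untreated list 7 of 9 H4 genes fall in the band.

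Gtf3c1 regions at members were wider after KCl, as those of H3K27ac were. The 28 untreated regions had a median width of 392.5 bp and the 37 KCl regions 1162 bp, while the whole lists had medians of 352 and 348 bp. Gtf3c1 covered on average 19.7% of the first 500 bp of the 50 members untreated and 63.0% after KCl, against 26.2% and 30.0% over all genes. The cover was larger in the KCl list at 34 members, against 23.5% of all genes, and smaller at 2, against 15.5%. Mean cover was 53.5% and then 76.2% in H4 genes, 7.1% and 75.0% in H1 genes, 14.0% and 60.7% in H2A, 7.78% and 60.7% in H2B, and 10.1% and 40.3% in H3 genes.

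**Figure D5:**
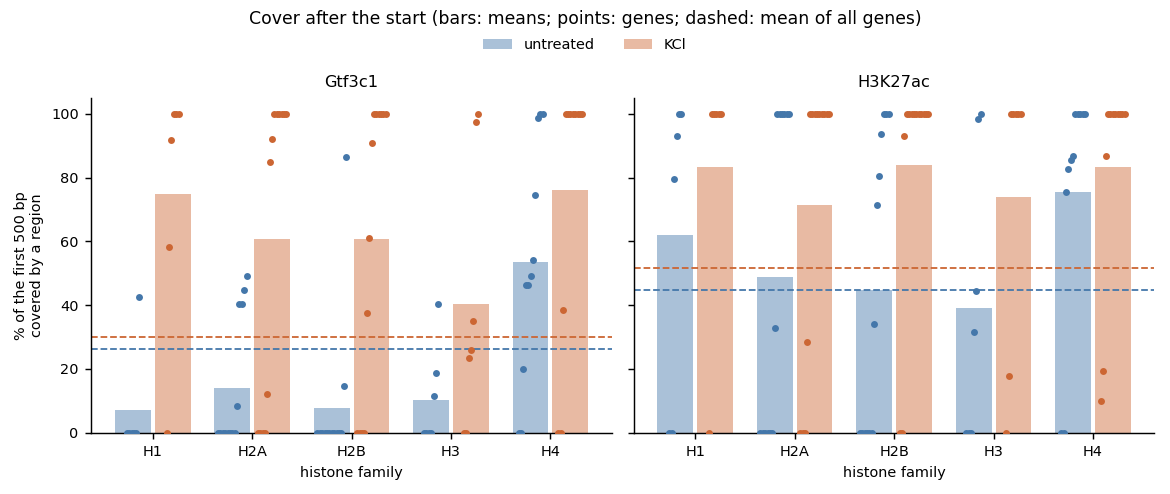
Percent of the first 500 bp after the start covered by Gtf3c1 (left) and H3K27ac (right) regions, by family; bars are means, points are genes, and dashed lines are the means over all 17492 genes with a start. Gtf3c1 bars of H1, H2A, H2B and H3 stand at 7.1% to 14.0% untreated and at 40.3% to 75.0% after KCl, and the H4 bars at 53.5% and 76.2%.

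All 5 somatic linker histone genes were listed for Gtf3c1 after KCl and 3 of them untreated. H1f1 had 3.04 untreated and 5.56 after KCl, H1f2 had 4.48 and 5.02, and H1f4 had 3.22 and 7.89. H1f3 and H1f5 had no untreated region and 5.74 and 6.46 after KCl. For H3K27ac, H1f1 had 4.70 and 13.8 (summits 2124 bp apart), H1f2 had 4.95 and 7.29, H1f4 had 5.71 and 13.9, H1f3 had 3.30 and 12.4, and H1f5 was listed after KCl alone at 11.8. Of the linker genes listed in both conditions, H1f2 had the lowest ratio for each antibody. The H1f4 Gtf3c1 summit lay at 1561 bp untreated and 1458 bp after KCl, past the end of the gene, in the region of its neighbour H2bc6.

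For H3K4me1 the median log2 ratio was 0.32 over 45 members listed in both, against 0.09 over all genes, and 11 were higher by 1.5-fold or more, against 5.72% of all genes, and 0 lower, against 2.30%. The count of 11 was 5 of 23 where the summits lay within 500 bp of each other, against 5.80% of such genes in general. For a fold of 2 it was 4 of 45, against 0.567% of all genes. With regions of 6 or more it was 2 of 18, against 3.55%. The listed members had a median of 5.78 untreated and 7.77 after KCl. The highest untreated values were 7.82 at H3c6 and H1f2 and 7.64 at H4c8, H2ac10 and H3c8. The lowest were 3.20 at H4c18, 3.38 at H1f4, 3.97 at H2bc9, 4.37 at H1f5 and 4.41 at H4c3. Of these low ones, H1f4 had 8.48 after KCl, H2bc9 8.66, H1f5 7.95 and H4c3 6.36, and H4c18 was no longer listed. H1f6, at 4.06, and H4c17, at 3.89, were listed after KCl alone, 2 members against 1.30% of all genes, and H4c18 was the 1 member listed in the untreated list alone, against 1.17%.

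The highest Rpc155 value by far was at H4c8, with a fold enrichment of 50.3 untreated and 47.9 after KCl, and this region overlapped the tRNA gene 625 bp away. At the other members the untreated values ran from 2.23 at H4c3 to 4.75 at H2bc9 and H3c7, and the KCl values from 3.16 at H3c11 to 6.17 at H2bc4. The 6 members listed in both conditions were H4c8, H4c9 at 4.41 and 5.09, H2bc4 at 4.41 and 6.17, H4c3 at 2.23 and 3.63, H4c1 at 4.07 and 4.72, and H3c1 at 4.07 and 4.36. Their median log2 ratio was 0.21, against -0.02 over all genes, with 1 of 6 higher by 1.5-fold, against 10.3%, and 0 lower, against 4.58%.

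In the KCl list alone Rpc155 was listed at 9 members, against 3.46% of all genes: H4c2 at 4.90, H2bc6 at 4.54, H2ac7 and H3c4 at 4.00, H1f4 at 3.63, H2ac11, H2bc11 and H1f6 at 3.27, and H3c11 at 3.16. The summits behind the values of H2ac7, H2bc11, H1f4 and H1f6 lay over 1 kb from those genes' starts. In the untreated list alone it was listed at 5 members, against 20.7% of all genes: H2bc9 and H3c7 at 4.75, H4c4 at 3.23, and H2ac4 and H3c2 at 3.06. The whole Rpc155 list was shorter after KCl, with 4251 regions against 12531. H4 genes made up 5 of 11 listed members untreated and 5 of 15 after KCl.

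Of the 8 untreated Rpc155 regions at members 5 overlapped a Gtf3c1 region, and of the 15 KCl regions 14 did, against 76.3% and 81.8% of the whole lists. Every member with Rpc155 after KCl also had Gtf3c1 (15 of 15), and untreated 7 of 11 did (63.6%), where 98.1% and 94.8% of all genes with Rpc155 also had Gtf3c1. All 5 H4 genes with Rpc155 had Gtf3c1 in each condition. Of members with Gtf3c1, 20.6% untreated and 34.1% after KCl also had Rpc155, against 50.4% and 22.2% of all genes with Gtf3c1. H3K27ac overlapped 23 of the 28 untreated Gtf3c1 regions at members and 37 of the 37 KCl regions, against 48.9% and 51.6% of the whole lists.

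The testis pair H2bc1 and H2ac1 had no region of any antibody in either list. H3K27ac was also missing in both lists at H2bc23, H2ac23 and H2ac24. Those 3 genes and H4c17 and H4c18 share 200 to 285 bp of identical promoter sequence with another member, so at these 5 genes absence of binding and lack of reads that can be placed uniquely cannot be told apart. Gtf3c1 was not listed in either condition at 9 members: these 5, the testis pair, and H2ac22 and H2bc22. The remaining testis gene, H1f6, was listed through regions of H4c3, as given above.

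Of the other 76 protein-coding genes of the window, Gtf3c1 was listed at 13 untreated and 16 after KCl and H3K27ac at 17 and 19. The median log2 ratios were -0.16 and 0.48. Over all genes the shares were 55.8% and 55.1% for Gtf3c1 and 59.5% and 62.9% for H3K27ac, and the ratios 0.06 and 0.46. The 76 include H4bc24, whose symbol resembles those of the members but lies outside the prefixes, and which had no region in any list. The 48 olfactory and vomeronasal receptor genes among the 76 had no Gtf3c1 or Rpc155 region and 1 had H3K27ac. The 10 genes of chromosome 3 with the same prefixes had Gtf3c1 at 9 in each condition with a median log2 ratio of 0.59, and H3K27ac at 9 and 10 with 0.73. The 10 replication-independent histone genes had Gtf3c1 at 8 and 9 with a median log2 ratio of 0.23, H3K27ac at 9 and 10 with 0.33, and Rpc155 at 5 and 0. None of these differences was tested.

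Of 26 genes for histone gene transcription and mRNA 3′ end formation, H3K27ac was listed at 25 untreated and 26 after KCl, with a median log2 ratio of 0.52, 11 of 25 higher by 1.5-fold or more and 0 lower. Over all genes these were 0.46, 36.9% and 0.880%. Gtf3c1 was listed at 22 and 22, with 4 of 19 higher and 1 lower, against 12.6% and 9.86% of all genes. Npat, the organiser of the histone locus body, had H3K27ac at 4.32 and 10.8 and Gtf3c1 after KCl alone at 5.56. Hinfp had H3K27ac at 5.59 and 11.0. Slbp, which binds the histone mRNA stem-loop, had Gtf3c1 at 12.7 and 9.15 and H3K27ac at 6.96 and 7.70.

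The cultures were checked with cell type markers. H3K27ac was listed within 1 kb at 5 of 5 neuronal markers in each condition, at 0 of 5 microglial markers, at 5 and then 4 of 5 astrocyte markers, at 2 and then 1 of 5 markers of the oligodendrocyte lineage, at 3 of 4 endothelial markers, and at 7 and then 9 of 10 genes of dividing cells. Over all protein-coding genes, 59.5% untreated and 62.9% after KCl were listed for H3K27ac. At the dividing cell genes the median log2 ratio was 0.71 over 7 genes, beside 1.17 for the histone genes and 0.46 over all genes. The part of dividing cells in the histone gene values was not tested.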

How the data were processed

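The 8 deposited MACS2 narrowPeak lists hold positions and summits, a score, a fold enrichment ratio, and −log10 p and −log10 q per region, all the authors' values. Per the submitters' processing notes, the tools were Bowtie2 and MACS2 and the build GRCm38/mm10. The sources used here give neither tool versions nor whether replicates were pooled. A q of 0.05 was taken as the lists' threshold. Only regions on the 19 autosomes, X and Y entered. Fold enrichment was not adjusted between libraries, so members were read beside all protein-coding genes. Genes, starts and promoter sequences came from RefSeq tables of GRCm38.p6, and tRNA genes were taken with 200 bp flanks. Overlap means at least 1 bp. Scripts used Python 3.11.15 and pandas 2.3.3 and were checked on simulated lists. Columns of per-sample values left unused numbered 0. The comparisons with genes in the members' untreated range or quartiles, and of regions with summits within 500 bp of each other, were added after the values were seen. The members, gene lists and motifs were chosen with earlier results of these data known. Named members were those with Rpc155, the 5 highest and 5 lowest untreated values per other antibody, those listed in 1 condition alone, those without H3K27ac, and the testis and linker genes.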

Additional observations from a re-analysis of the deposited data

How the results depend on the processing

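Of 282 values under other settings, 211 were counts within 1.5 times the count reported or median ratios within 1.5-fold, before taking logs, of the ratio reported. The median log2 ratio of H3K27ac stayed between 0.71 and 1.19 that of H3K4me1 between 0.23 and 0.40, and that of Gtf3c1 between 0.36 and 0.62 but for 1 setting. With regions of fold enrichment 6 or more, the median log2 ratio was -0.0695 for Gtf3c1 and -0.0687 for Rpc155. Under that setting listed members were 10 and 28 for Gtf3c1 (untreated, KCl), against 13.7% and 14.9% of all genes. They were 9 untreated for H3K27ac, against 31.7%, 19 untreated for H3K4me1, and 1 and 2 for Rpc155. Members in the KCl list alone were then 22 for Gtf3c1, 34 for H3K27ac, 22 for H3K4me1 and 1 for Rpc155. The shares of all genes were 6.24%, 15.3%, 6.78% and 0.617%. In the untreated list alone members were 4 for Gtf3c1, against 5.08%, and 0 for Rpc155. The cause was not tested. At a q of 1e-05 or lower, listed members were 21 untreated for Gtf3c1 and 7 and 7 for Rpc155. Members in the KCl list alone were 22 for Gtf3c1 and 2 for Rpc155, against 7.82% and 1.87% of all genes. In the untreated list alone members were 3 for Gtf3c1, 0 for H3K4me1 and 2 for Rpc155, against 7.84%, 1.31% and 7.11%. Rpc155 regions over Gtf3c1 were 3 untreated and 8 after KCl, and members with both after KCl 7. Requiring overlap with the gene gave, in the KCl list alone, 18 for Gtf3c1, 6 for H3K4me1 and 4 for Rpc155. The shares of all genes were 5.36%, 1.46% and 2.96%. In the untreated list alone it gave 1 for Gtf3c1 and 3 for H3K4me1, against 5.93% and 1.23%, and 3 for Rpc155. Rpc155 KCl members were then 9. Within 5 kb, Rpc155 was listed at 25 and 32 members. Changing the rule changes the share of all genes as well. Counts in this section without that share beside them therefore do not tell whether members depart from all genes. KCl-alone members were then 4 for Gtf3c1 and 5 for H3K27ac, against 4.47% and 4.41% of all genes. Untreated-alone members were 2 for H3K4me1, against 1.16%. With summits within 1 kb of the start, KCl-alone members were 4 for H3K4me1 and 5 for Rpc155, against 5.87% and 3.02% of all genes. Untreated-alone members were 1 for Gtf3c1, 8 for H3K27ac and 5 for H3K4me1, against 5.13%, 1.87% and 5.33%. Rpc155 KCl members were 9, against 7.49%. With summits within 1 kb of the gene, untreated-alone members were 1 for Gtf3c1, 7 for H3K27ac and 2 for H3K4me1. The shares of all genes were 5.68%, 1.64% and 1.48%. With equal list lengths Rpc155 had 7 untreated members and 2 untreated-alone. Counting each strongest region once, a setting added after the data were seen like the centring on all genes, the limit of 500 bp between summits and the leaving out of near-identical promoters, gave 28 for Gtf3c1 and 28 for H3K27ac after KCl. No paired analysis was possible because each antibody and condition gave 1 list.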
